A study of Homo sapiens with 8 samples.

Results

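The response of RKO cells to 5-Aza-CdR after knockdown of SRCAP was followed on 4 of the 8 expression arrays of the series. Members were chosen by label alone, as the 2 arrays of cells given SRCAP siRNA and 5-Aza-CdR and the 2 arrays of cells given SRCAP siRNA and PBS, and the comparison covered 18922 of 48801 probes, those whose detection p-value fell below 0.01 on 2 or more of these 4 arrays. RKO is a human colon carcinoma line, and both groups had received 100 nM of a pooled siRNA against SRCAP for 24 h before 1 µM of the drug or PBS. The labels give 72 h with the drug or with PBS, while the study's methods describe a shorter drug exposure and RNA taken 72 h later. The other 4 arrays had a non-target siRNA pool (NC) in place of the SRCAP pool and otherwise the same steps, and they are used here only where the effect of the drug is compared between the siRNAs. Replicate 1 of every group lay on 1 slide and replicate 2 on a second slide, and no label says that the replicates were separate cultures, so the p-values reflect only how far arrays of 1 group differ, which may be technical variation. Values of 2 arrays are given with slide 1 first.

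5-Aza-CdR is a deoxycytidine analogue that is built into DNA during replication and traps DNA methyltransferases, so that methylation is lost from the daughter strands. Promoters rich in CG dinucleotides can be methylated and silent in colon carcinoma, and many genes of the germline are held silent in the same way in somatic cells. SRCAP is the ATPase of a remodelling complex that places the histone variant H2A.Z into nucleosomes near transcription start sites, and the comparison asks which genes change with the drug when SRCAP has been lowered.

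The knockdown of SRCAP rests here on 1 probe of low signal, since its other probe was detected on none of the 8 arrays. The detected probe (ILMN_1750641) read 6.58 and 6.58 under PBS and 6.73 and 6.46 after 5-Aza-CdR in SRCAP siRNA cells, on the scale of normalized log2 signals used throughout. The 4 NC arrays read 6.83 to 7.19, and the siRNA groups did not overlap. SRCAP siRNA cells had 72.0% of the NC level, a log2 difference of -0.47 (p = 0.0286, two-sided exact permutation test over 70 divisions of the arrays, the smallest p it can give), but it was not called among all probes (limma adjusted p = 0.176). With the drug SRCAP changed by 0.02 ± 0.22 (log2 change ± SE) and was not called. On the 4 SRCAP siRNA arrays 36.6% to 40.5% of probes were detected, and the highest number, 19767 probes, was on the second array with 5-Aza-CdR against 17838 to 18129 on the others. Replicates correlated across the tested probes at r = 0.986 under PBS and 0.993 after the drug. Of the colon epithelial markers CDX2 and EPCAM were detected on all 4 arrays, as were the keratins KRT8 and KRT18, whereas VIL1, CDH17 and CDH1 were detected on none and KRT20 on 1. In RNA of whole cultures fewer cells that express a gene and less of its RNA per cell cannot be told apart.

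5-Aza-CdR acted almost wholly upward in SRCAP siRNA cells. In all, 374 probes were higher (1.98% of those tested) and 7 were lower (0.0370%) at an adjusted p under 0.05. With each gene read from its tested probe of highest mean signal, 262 of 11169 genes were higher (2.35%) and 4 were lower (0.0358%). The median log2 change of the genes called higher was 2.03, and their changes ran from 0.98 to 7.77, whereas the median over all tested genes was -0.02. With the slide as a block the counts were 340 genes higher and 39 lower (497 and 63 probes). All 262 increases went the same way on both slides. Without the first array with 5-Aza-CdR 237 probes were higher and without the second 236, all of them among the 374. With the values normalized by the authors 177 probes were higher and 2 lower.

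Most increases were called in genes undetected under PBS, a class that the filter shapes. Of the 262 genes called higher, 177 had a probe detected on neither PBS array, 12 on 1 and 73 on both. The tested genes in these classes numbered 336, 544 and 10289. A probe undetected under PBS entered the comparison only if both 5-Aza-CdR arrays detected it. The 254 of 633 such probes and 177 of 336 such genes called higher are therefore a description and not support. In all 1512 tested probes were detected on just 2 of the 4 arrays. Among the 16785 probes detected on both PBS arrays 102 were higher and 7 lower, with a median change of -0.05. Of the 16331 probes detected on all 4 arrays, increases were called for 50 of 2644 with a mean PBS signal up to 7 (1.89%). They were called for 6 of 2279 between 10 and 11 (0.263%) and for 4 of 2865 above 12 (0.14%). The SD of the changes also fell, from 0.54 in the lowest of these classes to 0.25 in the highest. When a filter required detection on both PBS arrays and the test was run on those probes alone, 77 probes were called higher and 0 lower (limma), whereas the test over all 18922 probes called 102 and 7 of them. At an unadjusted p under 0.05 the latter had 968 probes higher and 495 lower.

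**Figure D1:**
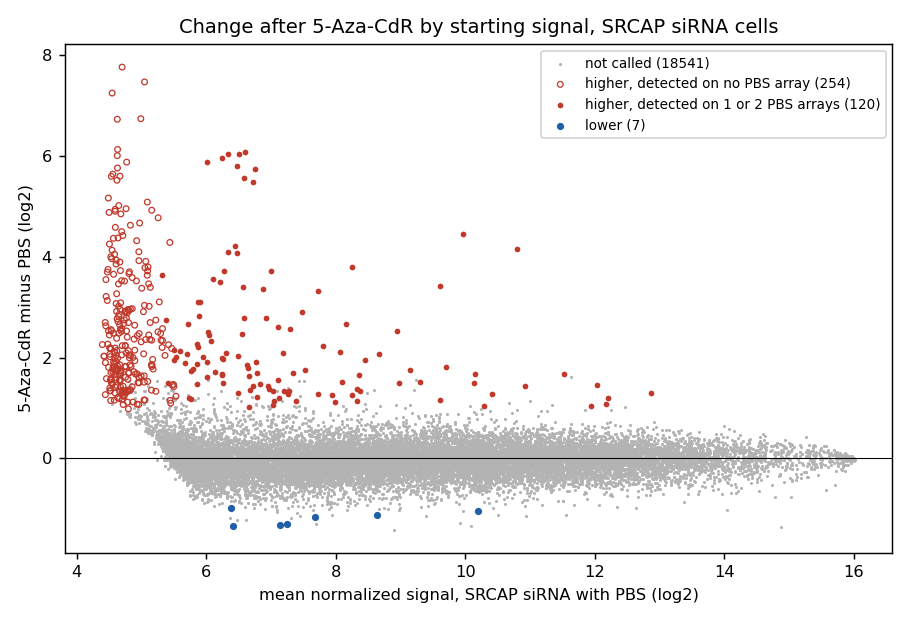
Each point is 1 of the 18922 tested probes, with its mean normalized log2 signal on the 2 SRCAP siRNA arrays with PBS on the x axis and the log2 change after 5-Aza-CdR on the y axis. Open red points are the 254 probes called higher that no PBS array detected, filled red points the other 120 called higher, and blue points the 7 called lower, and the largest increases lie at the left edge.

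The largest increase was that of DAZL, an RNA-binding protein of germ cells. Its probe read 4.69 and 4.71 under PBS, where it was not detected, and 12.20 and 12.74 after 5-Aza-CdR. The change was 7.77 ± 0.25 (adjusted p = 7.08e-07), which is at least 109.3-fold when the PBS level is set no lower than the dimmest detected probe of each array. All bounds below are made in this way, and the log2 change of an undetected gene depends on the background correction. A further DAZL probe changed by 6.73. LOX, the enzyme that cross-links collagen, read 5.10 and 5.00 under PBS and 12.42 and 12.62 after the drug, a change of 7.47 ± 0.22 or at least 113.3-fold. MAGEB2, a cancer-testis antigen, went from 4.55 and 4.54 to 11.70 and 11.90 (7.25 ± 0.25, at least 68.7-fold). HCLS1, a signalling adaptor of blood cells, went from 4.79 and 5.18 to 11.88 and 11.58 (6.74 ± 0.24, at least 65.6-fold). In all 4 genes the arrays with the drug stood far above those with PBS on either slide.

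H2AB1 encodes a short histone H2A variant made in testis. It read 4.55 and 4.71 under PBS and 10.26 and 11.27 after 5-Aza-CdR, with the higher value on slide 2 (6.13 ± 0.35, at least 33.5-fold). ZNF274, a KRAB zinc finger protein, went from 4.75 and 4.79 to 10.71 and 10.59 (5.88 ± 0.22), and 2 further probes of it were called higher too. The remaining genes among the 15 largest increases that no PBS array detected were VCX3B, VCX, FMR1NB, TEX11, VCX3A, CT45A3 and MAEL. They changed by 4.96 (MAEL) to 5.76 (VCX3B) and their bounds ran from 15.5-fold (TEX11) up to 25.9-fold (VCX3B). TEX11 acts in meiotic recombination and MAEL in the piRNA pathway that silences transposons in germ cells, and VCX, CT45 and FMR1NB are X-linked genes of testis. A further VCX3A probe changed by 1.54, short of a call (adjusted p = 0.0831). Genes of the VCX, CT45, GAGE and H2AB families are close copies of one another, so the family member is uncertain.

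The promoters of the genes with the largest changes in either direction show what these start sites hold in the way of CG dinucleotides, the sites of DNA methylation, which are in capitals. Each runs 5′ to 3′ on the strand of its gene from 250 bases before to 50 after the annotated start, in RefSeq's annotation of GRCh38.p14, and the first start listed was taken where a gene had several. The 5 largest increases with a promoter in the table are DAZL (chr3:16605374-16605673, minus strand), LOX (chr5:122078210-122078509, minus strand), MAGEB2 (chrX:30215313-30215612, plus strand), HCLS1 (chr3:121660854-121661153, minus strand) and H2AB1 (chrX:154884722-154885021, plus strand). IFT140 (chr16:1612023-1612322, minus strand) and LMF1 (chr16:970935-971234, minus strand) are the 2 largest decreases.
DAZL: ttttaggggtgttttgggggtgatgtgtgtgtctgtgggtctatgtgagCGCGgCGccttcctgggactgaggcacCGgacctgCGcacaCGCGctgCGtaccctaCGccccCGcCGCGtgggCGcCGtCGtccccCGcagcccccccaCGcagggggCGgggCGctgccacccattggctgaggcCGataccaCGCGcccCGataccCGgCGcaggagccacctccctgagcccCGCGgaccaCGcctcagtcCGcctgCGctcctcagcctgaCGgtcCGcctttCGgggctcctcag
LOX: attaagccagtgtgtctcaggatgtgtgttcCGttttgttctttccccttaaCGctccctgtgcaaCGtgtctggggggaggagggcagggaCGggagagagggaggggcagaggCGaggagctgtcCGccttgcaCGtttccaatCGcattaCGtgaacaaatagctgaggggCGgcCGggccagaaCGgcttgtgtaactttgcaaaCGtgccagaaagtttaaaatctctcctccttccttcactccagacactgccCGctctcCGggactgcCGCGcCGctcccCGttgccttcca
MAGEB2: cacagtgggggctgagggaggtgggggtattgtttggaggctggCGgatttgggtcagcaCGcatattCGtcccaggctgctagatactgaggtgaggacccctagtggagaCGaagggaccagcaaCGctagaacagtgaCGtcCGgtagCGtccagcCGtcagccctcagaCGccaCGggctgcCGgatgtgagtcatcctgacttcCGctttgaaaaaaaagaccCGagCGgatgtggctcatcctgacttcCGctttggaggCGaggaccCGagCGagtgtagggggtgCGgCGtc
HCLS1: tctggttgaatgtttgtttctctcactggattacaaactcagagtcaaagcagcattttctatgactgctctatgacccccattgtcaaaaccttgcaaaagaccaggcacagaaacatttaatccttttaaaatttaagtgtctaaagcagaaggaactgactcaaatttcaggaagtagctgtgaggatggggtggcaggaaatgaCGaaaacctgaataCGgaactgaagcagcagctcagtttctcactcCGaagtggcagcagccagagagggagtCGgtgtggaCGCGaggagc
H2AB1: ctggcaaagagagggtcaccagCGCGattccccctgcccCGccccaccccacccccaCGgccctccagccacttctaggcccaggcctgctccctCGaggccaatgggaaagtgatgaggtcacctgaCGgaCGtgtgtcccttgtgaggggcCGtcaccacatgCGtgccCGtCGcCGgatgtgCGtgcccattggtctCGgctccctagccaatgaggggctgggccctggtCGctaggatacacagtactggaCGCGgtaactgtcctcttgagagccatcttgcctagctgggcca
IFT140: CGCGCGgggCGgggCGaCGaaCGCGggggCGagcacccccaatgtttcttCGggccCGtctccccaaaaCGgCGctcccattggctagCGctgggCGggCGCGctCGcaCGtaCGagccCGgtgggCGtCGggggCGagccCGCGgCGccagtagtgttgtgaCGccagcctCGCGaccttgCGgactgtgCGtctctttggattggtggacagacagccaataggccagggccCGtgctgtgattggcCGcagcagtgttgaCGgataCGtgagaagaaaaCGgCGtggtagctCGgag
LMF1: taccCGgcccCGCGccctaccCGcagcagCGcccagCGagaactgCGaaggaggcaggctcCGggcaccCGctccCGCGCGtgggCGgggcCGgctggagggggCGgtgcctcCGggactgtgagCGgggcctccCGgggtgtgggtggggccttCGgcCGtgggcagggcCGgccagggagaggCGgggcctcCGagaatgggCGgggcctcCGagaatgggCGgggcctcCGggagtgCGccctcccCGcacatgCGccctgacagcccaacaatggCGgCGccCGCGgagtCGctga
In these 300 bases DAZL had 33 CG, LOX 19, MAGEB2 21, HCLS1 6 and H2AB1 17, and the genes that fell had 39 (IFT140) and 35 (LMF1). HCLS1 had the fewest CG of the 7. No methylation was measured on these arrays.

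**Figure D2:**
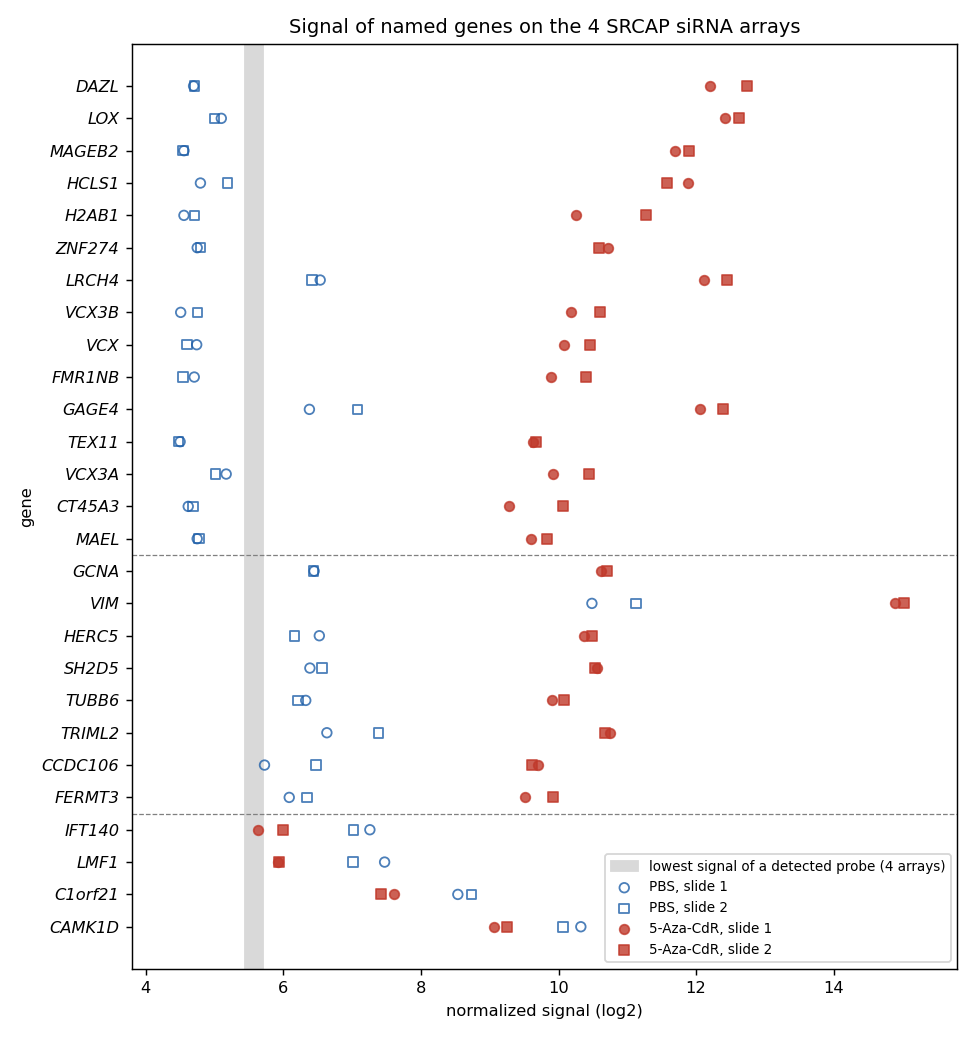
Normalized log2 signal (x axis) of named genes (y axis) on each of the 4 SRCAP siRNA arrays, with open blue symbols for PBS, filled red for 5-Aza-CdR, circles for slide 1 and squares for slide 2, and a grey band at the lowest signal of any detected probe on these arrays. Dashed lines part the 15 largest increases, the further increases among genes detected under PBS and the 4 decreases, and in no gene do the PBS and drug values overlap.

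Genes that were already detected under PBS gave increases whose size does not rest on a bound. Some still began near the dimmest detected probe of the PBS arrays (5.69 and 5.70), such as CCDC106 at 5.72 and 6.47. LRCH4, a leucine-rich repeat protein, read 6.53 and 6.42 under PBS and 12.11 and 12.45 after 5-Aza-CdR (5.81 ± 0.28). The probes of LRCH4 disagreed, since a further one went from 8.39 and 8.75 to 9.79 and 9.03 and was not called (0.84, adjusted p = 0.357). GAGE4, a cancer-testis antigen of a family of close copies, went from 6.38 and 7.08 to 12.05 and 12.40 (5.50 ± 0.30). GCNA, an acidic protein of germ cell nuclei, went from 6.45 and 6.44 to 10.61 and 10.70 (4.21 ± 0.28).

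VIM, the intermediate filament vimentin of mesenchymal cells, read 10.48 and 11.13 under PBS and 14.89 and 15.02 after 5-Aza-CdR, a change of 4.15 ± 0.26 or 17.7-fold (adjusted p = 1.65e-05), and a further VIM probe changed by 4.44. HERC5, the interferon-induced ligase of the ubiquitin-like protein ISG15, went from 6.52 and 6.16 to 10.37 and 10.49 (4.09 ± 0.26). TUBB6, a beta-tubulin, went from 6.32 and 6.22 to 9.90 and 10.08 (3.72 ± 0.25). FERMT3, which activates integrins in blood cells, went from 6.08 and 6.34 to 9.52 and 9.92 (3.51 ± 0.26). SH2D5 (4.07), TRIML2 (3.71) and CCDC106 (3.56) completed the 10 largest increases among detected genes. A further SH2D5 probe changed by -0.04 (adjusted p = 0.996), so its probes disagreed.

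Decreases were few and small. IFT140, a subunit of the intraflagellar transport particle that carries cargo in cilia, read 7.26 and 7.02 under PBS and 5.63 and 5.99 after 5-Aza-CdR, a change of -1.33 ± 0.27 (adjusted p = 0.0355). Its value on the first 5-Aza-CdR array lay below the dimmest detected probe there (5.66), so the size of this decrease is uncertain. LMF1, which matures lipases in the endoplasmic reticulum, went from 7.47 and 7.01 to 5.92 and 5.94 (-1.31 ± 0.24, adjusted p = 0.0185). C1orf21 went from 8.54 and 8.74 to 7.61 and 7.41 (-1.13 ± 0.21). CAMK1D, a calcium-dependent kinase, went from 10.32 and 10.07 to 9.06 and 9.25 (-1.04 ± 0.22, adjusted p = 0.0478), while 2 further probes of it were not called (-0.28 and -0.45). The sizes also depended on the processing, since IFT140 changed by -0.61 without background correction and -0.42 in the values normalized by the authors, LMF1 by -0.63 and -0.45, and C1orf21 by -0.66 in the latter. All 4 calls were lost in at least some of the other settings of normalization, filter or arrays, and without the first PBS array, the first 5-Aza-CdR array or the second 5-Aza-CdR array 0 probes were lower. The other probes called lower were of RFX2 (-1.16), CAMSAP3 (-0.99) and an unnamed sequence. They are not the representative probes of their genes and were picked out after their values were seen.

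Genes that the study followed as silenced by methylation rose wherever they could be tested. The study chose some of them on these samples, so their direction is not independent evidence. CDKN2A, the locus of the cell cycle inhibitors p16 and ARF, read 4.63 and 4.67 under PBS, where it was not detected, and 7.43 and 7.49 after 5-Aza-CdR (2.81 ± 0.22, adjusted p = 6.15e-05, at least 3.40-fold). A further CDKN2A probe changed by 2.23, and another was detected on no array. CTCFL, the testis paralogue of the insulator protein CTCF, went from 4.43 and 4.57 to 9.35 and 9.41 (4.88 ± 0.23, at least 12.9-fold). SYCP3, a component of the synaptonemal complex of meiosis, rose at least 8.81-fold and EPM2AIP1 at least 2.09-fold. EPM2AIP1 changed by 2.14 and lost its call with the values normalized by the authors (0.58, adjusted p = 0.0606). CHFR, a mitotic checkpoint ubiquitin ligase, was detected under PBS at 6.83 and 6.85 and read 8.18 and 8.43 after the drug (1.47 ± 0.22), a call lost without either PBS array or the second 5-Aza-CdR array (adjusted p = 0.0571 to 0.113). In total 5 of 5 tested genes of the list were higher, with a median of 2.81, or 1.77 with undetected genes at their bound. Among all genes tested 2.35% were higher. MYOD1, the master regulator of skeletal muscle, was detected on none of the 8 arrays. Of the genes followed as constitutively expressed, the chaperone HSPA5 read -0.56 ± 0.20, the laminin LAMB3 -0.30 ± 0.22 and G3BP1 0.01 ± 0.25, and none was called (1 of 3, HSPA5, had an unadjusted p under 0.05).

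Cancer-testis antigens, proteins normally confined to testis that tumours can make, held the most calls of any list. Of 59 genes named on the array 35 were tested and 28 were higher and 0 lower, against 2.35% higher among all genes tested. The median change of the 35 was 2.37, or 1.44 with undetected members at their bound. Because 27 of the 35 were undetected under PBS, the filter itself admits the members that rose. Among the 4 members detected on both PBS arrays 1 was higher, GAGE4, and MAGEA11 (-0.20), SSX4 (-0.02) and PRAME (0.10) were not called. Called members beyond those above included the GAGE relative PAGE5, which went from 4.61 and 4.72 to 8.28 and 8.84 (3.89), MAGEA4 (2.53) and CTAG2 (2.64), each undetected under PBS. The 24 members not tested, which include MAGEA3, MAGEC2, SSX5 and BRDT, were detected on fewer than 2 of the 4 arrays.

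Genes of germ cells, meiosis and the piRNA pathway followed, with 13 of 31 tested members higher and 0 lower of 60 named on the array, against 2.35% higher among all genes. Their median change was 0.34. As 12 of the 31 were undetected under PBS, they could be tested only because both 5-Aza-CdR arrays detected them, so their calls are a description. Besides DAZL, TEX11, MAEL, H2AB1 and SYCP3 they included HORMAD1, which binds meiotic chromosome axes (2.67, at least 3.25-fold), TDRD9, a helicase of the piRNA pathway (2.34, at least 3.91-fold), and its partners FKBP6 (1.70) and GTSF1 (1.64). Among the 16 members detected on both PBS arrays only TSGA10 was called, a sperm tail protein that went from 6.18 and 5.73 to 7.93 and 8.01 (2.01 ± 0.22). The piRNA-binding genes PIWIL1 and PIWIL2 and the pluripotency genes DPPA2 to DPPA5 were not tested, being detected on fewer than 2 of the 4 arrays. The increases thus covered some germline genes of the list and not others.

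Genes commonly methylated in colon cancer were split in the same way. Of 45 on the array 20 were tested and 9 were higher and 0 lower, with a median of 0.31, against 2.35% higher among all genes. Of the 20, 6 were undetected under PBS and were admitted by the 5-Aza-CdR arrays alone. BNIP3, a mitochondrial mediator of mitophagy and cell death, went from 5.08 and 4.86, undetected, to 9.67 and 9.61 (4.67 ± 0.23, at least 15.4-fold). HLTF, a chromatin remodeller of DNA damage tolerance, went from 5.28 and 4.99 to 8.21 and 8.85 (3.39 ± 0.28, at least 7.13-fold), and a further probe changed by 1.62 (adjusted p = 0.142). The protease inhibitor TFPI2 (2.55), the pyroptosis effector GSDME (2.26), the secreted DKK3 (1.61) and NDRG4 (1.33) rose as well. MGMT, which repairs alkylated guanine, changed by -0.60 (adjusted p = 0.870), and the Wnt antagonists SFRP1, SFRP2, SFRP4 and SFRP5 were not tested because fewer than 2 of the 4 arrays detected them. Of 19 imprinted genes tested 2 were higher, beside the same 2.35% among all genes. They were SGCE, a sarcoglycan (3.75, at least 5.81-fold), and NNAT, a small membrane protein of the developing brain (2.91, at least 4.74-fold). Both were undetected under PBS and admitted by the 5-Aza-CdR arrays alone, a class in which 177 of all 336 tested genes were higher. Of the 16 imprinted genes detected on both PBS arrays 0 were called (limma).

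Targets of p53 that could be tested were mostly expressed already. Of 37 tested 8 were higher and 0 lower (13 and 0 with the slide block), against 2.35% higher among all genes tested. Of the 8, 6 were among the 33 detected on both PBS arrays, a class in which 73 of all 10289 tested genes were higher. The median change was 0.51 against -0.02 over all genes. CDKN1A, the cell cycle inhibitor p21, read 12.96 and 12.77 under PBS and 14.34 and 13.97 after 5-Aza-CdR (1.29 ± 0.22, adjusted p = 0.0115), while a further probe read 0.55 and was not called. TIGAR, a phosphatase that restrains glycolysis, went from 10.89 and 10.95 to 12.53 and 12.16 (1.43 ± 0.22), and TP53INP1, a regulator of autophagy, from 8.82 and 8.51 to 10.66 and 10.81 (2.07 ± 0.33). SPATA18, which acts in mitochondrial quality control, was undetected under PBS and rose at least 6.42-fold. The stress cytokine GDF15 (1.67), the DNA damage sensor DDB2 (1.38), the stress-response gene SESN1 and the kinase PLK2 (1.51) were called too, the last at adjusted p = 0.0499. MDM2, the ligase that degrades p53, read 1.30 and fell just short of the threshold (adjusted p = 0.0526). TP53INP1 lost its call without any 1 of the 4 arrays (adjusted p = 0.0505 to 0.132), and CDKN1A and TIGAR without either PBS array or the first 5-Aza-CdR array (0.0623 to 0.196 and 0.0544 to 0.122).

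Interferon and antigen presentation genes responded only in part. Of 34 interferon-stimulated genes tested 4 were higher and 0 lower (median 0.16), against 2.35% higher among all genes tested. The 4 were HERC5, the secreted glycoprotein LGALS3BP, the membrane protein IFITM1 and the transcription factor IRF7. IFITM1 went from 7.03 and 7.36 to 8.51 and 8.54 (1.33 ± 0.25, adjusted p = 0.0235), and LGALS3BP changed by 2.16 ± 0.33. IRF7 rose at least 1.22-fold (adjusted p = 0.0356). The calls of IFITM1 and IRF7 were lost without any 1 of the 4 arrays (adjusted p = 0.0764 to 0.240 and 0.148 to 0.445), and the change of IRF7 was 0.62 with an offset of 50 and 0.25 in the authors' values. LGALS3BP lost its call without the first 5-Aza-CdR array (adjusted p = 0.116). The antiviral genes MX2, OAS2, RSAD2, IFI44L and CXCL10 were not tested, being detected on fewer than 2 of the 4 arrays. Of 12 sensors of viral nucleic acid and their partners 0 were called (limma), with a median of -0.01, and 2 were below 0 at an unadjusted p under 0.05. TLR3, a receptor for double-stranded RNA, had the largest negative change of them (adjusted p = 0.433) and was called lower with the slide block. Of 17 genes of MHC class I presentation, HLA-B and the peptide transporter TAP1 were higher, beside the same 2.35% among all genes tested. HLA-B went from 10.16 and 10.15 to 11.77 and 11.88 (1.67 ± 0.23) and TAP1 from 11.89 and 11.98 to 13.09 and 12.88 (1.04 ± 0.20, adjusted p = 0.0277), though HLA genes are similar enough to share signal. TAP1 lost its call without any 1 of the 4 arrays (adjusted p = 0.141 to 0.363) and HLA-B without the second 5-Aza-CdR array (0.0609).

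**Figure D3:**
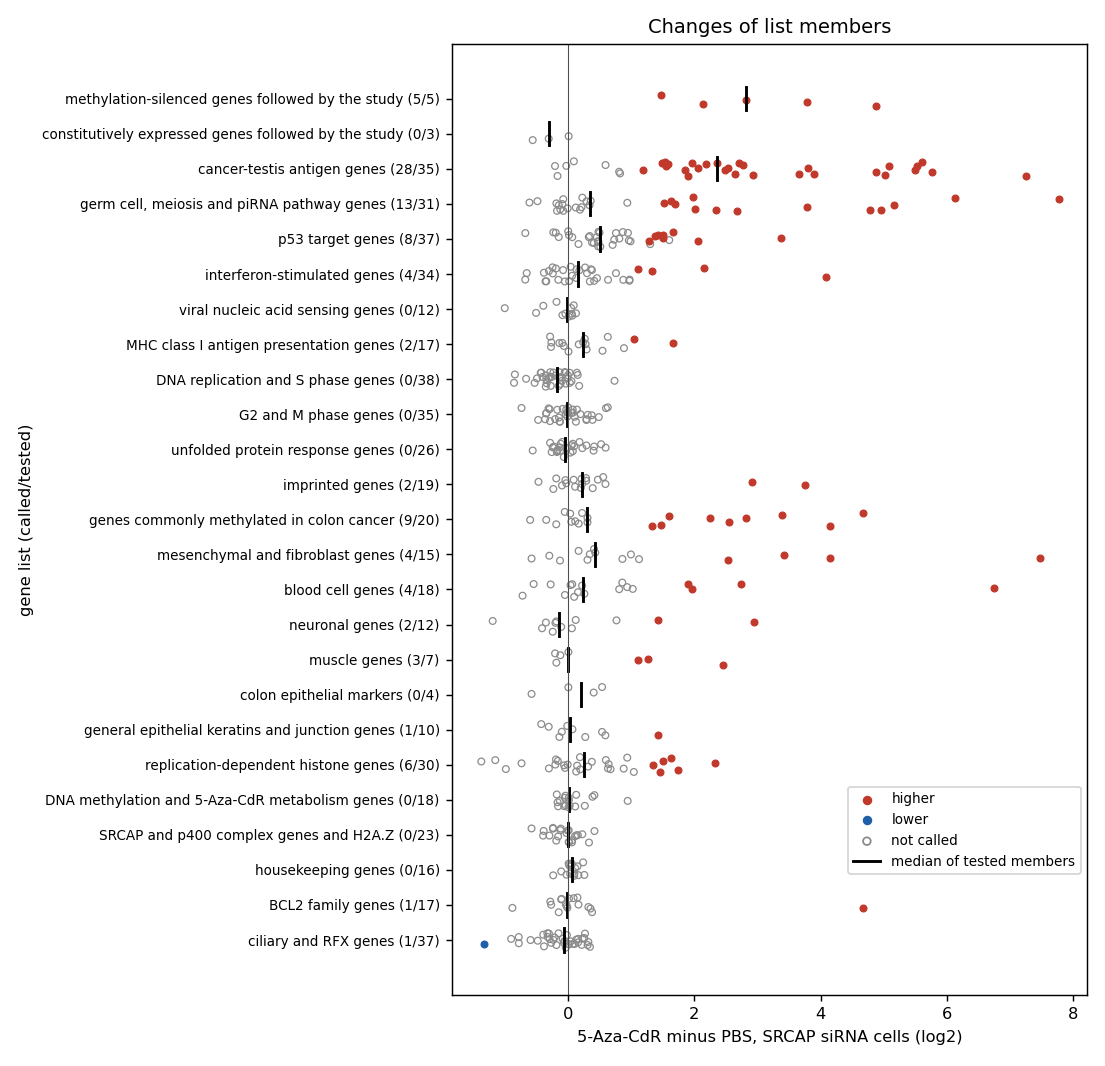
Log2 change after 5-Aza-CdR in SRCAP siRNA cells (x axis) of the tested members of each list (y axis, with the number called over the number tested). Red points were called higher, blue lower and open grey points not called, the black bar is the list median, and most lists hold a cluster around 0 with a few members far to the right.

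Genes of other tissues gave a few increases each, to be set beside 2.35% higher among all genes tested. Of 15 tested mesenchymal and fibroblast genes 5 were undetected under PBS and were admitted by the 5-Aza-CdR arrays alone. In this list 4 of the 15 were higher (7 with the slide block). They were LOX, VIM, TPM2, a tropomyosin that went from 9.44 and 9.79 to 13.02 and 13.04 (3.42 ± 0.24), and ACTA2, smooth muscle actin, which went from 8.93 and 8.95 to 11.65 and 11.30 (2.53 ± 0.24). Of the 33 on the array 10 were detected on each PBS array and 15 to 16 after the drug, and the linear signals of the tested members summed to 8248 to 9649 and 54760 to 58000. Such sums are weighted to the brightest members, above all VIM, which read 14.89 and 15.02 after the drug. The median log2 change of the 15 tested members was 0.43. The defining fibroblast genes COL1A1, COL3A1, DCN and LUM were detected on none of the 4 arrays. Blood cell genes had 4 of 18 higher, HCLS1, the actin regulator CORO1A (1.96 ± 0.22), the GTPase RAC2 (1.91 ± 0.25) and the globin HBA1 (2.74 ± 0.39). Of the 18 tested, 2 were undetected under PBS and were admitted in the same way. Of 39 on the array 10 to 16 were detected under PBS and 16 to 19 after the drug, and the sums were 75030 to 84340 and 86900 to 87320. The leucocyte antigen PTPRC, the T cell genes CD3D and CD3E and the myeloid factor SPI1 were detected on none. HBA1 lost its call without the second 5-Aza-CdR array (adjusted p = 0.0768).

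The counts of the next lists also stand beside 2.35% higher among all genes tested. Of 12 neuronal genes tested SYN1, which coats synaptic vesicles (2.95, at least 4.14-fold), and the hydrolase UCHL1 (1.42, at least 1.49-fold) were higher. The median change of the 12 was -0.14, or -0.20 among the 9 detected on both PBS arrays. With the slide block 2 were higher and 1 lower. The list summed to 8127 to 8439 under PBS and 7853 to 8587 after 5-Aza-CdR, and NEFL and MAP2 were detected on none of the arrays. Of 7 muscle genes MYL4, a myosin light chain (2.45 ± 0.27), the enolase ENO3 (1.27 ± 0.23) and the actin ACTA1 (at least 1.15-fold) were higher, with summed signals of 883.5 to 1045 and 1489 to 1586, while DES and MYOG were detected on none. The median change of the 7 was 0.01, or -0.06 among the 6 detected on both PBS arrays. Of 29 genes each, 9 to 10 neuronal genes and 6 to 8 muscle genes were detected under PBS and 12 and 7 after the drug. Of the tested members 2 neuronal genes and 1 muscle gene were undetected on both PBS arrays and were admitted by the 5-Aza-CdR arrays alone. The part of these marker levels in the other results was not tested. None of 4 tested colon epithelial markers was called (CEACAM5 -0.57, CDX2 0.01, CA2 0.41 and EPCAM 0.54), although 13 more on the array were detected on fewer than 2 of the 4 arrays. Of 10 keratins and junction genes CLDN7, a tight junction claudin, was higher (1.43, at least 1.37-fold). CLDN7 was the 1 tested member of that list undetected on both PBS arrays. The calls of UCHL1, ACTA1 and CLDN7 were lost without any 1 of the 4 arrays (adjusted p = 0.0590 to 0.208, 0.103 to 0.451 and 0.175 to 0.411), and ENO3 lost its own without the first PBS array or either 5-Aza-CdR array (0.188 to 0.232). With the values normalized by the authors UCHL1 changed by 0.34, ACTA1 by 0.25 and CLDN7 by 0.34.

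Replication-dependent histone genes, with a median of 0.26, had 6 of 30 tested members higher and 0 lower, against 2.35% higher among all genes tested. With the slide block 8 members were higher and 2 lower. H4C8 went from 6.66 and 6.67 to 8.40 and 8.21 (1.64 ± 0.21) and H2AC6 from 7.43 and 7.60 to 9.26 and 9.27 (1.74 ± 0.23). H2AC11, H2BC21, H2BC5 and H2BC12 rose by 1.34 (H2BC5) to 2.32 (H2AC11). Others went the opposite way without a call, with H4C3 at -1.37 (adjusted p = 0.201) and H2BC9 at -1.15 (adjusted p = 0.331). The genes are near copies, which their probes may share. H2AC11 and H2BC21 lost their calls without the second PBS array or either 5-Aza-CdR array (adjusted p = 0.0736 to 0.144 and 0.126 to 0.181).

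Cell cycle and housekeeping genes gave no calls. Of the lists with 0 called members (limma), 38 genes of DNA replication and S phase had a median of -0.17, 35 of G2 and M phase -0.01, 26 of the unfolded protein response -0.04 and 16 housekeeping genes 0.06. At an unadjusted p under 0.05 there were 1 higher and 3 lower S phase genes, 2 and 0 of G2 and M phase, 2 and 1 of the unfolded protein response and 0 and 0 housekeeping genes. The replication licensing factor MCM5 read -0.85 (adjusted p = 0.131) and POLA1, a subunit of the priming polymerase, -0.84 (adjusted p = 0.504). In 18 genes of DNA methylation and drug metabolism the median was 0.01, with the maintenance methyltransferase DNMT1 at -0.06, its partner UHRF1 at -0.05 and DCK, the kinase that activates 5-Aza-CdR, at -0.13. In 23 genes for H2A.Z and for subunits of the p400 and SRCAP complexes the median was 0.00, with H2AZ1 at -0.11 and EP400 at -0.38. Of 17 BCL2 family genes BNIP3 was the 1 called, against 2.35% higher among all genes tested. BCL2 itself read -0.88 (adjusted p = 0.0929, and lower with the slide block). Of 37 ciliary and RFX genes 1 was called, IFT140, against 0.0358% lower among all genes tested. The cilium membrane protein PKD1 read -0.90 (adjusted p = 0.148).

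The same probes were also read in NC siRNA cells. Both contrasts draw on separate arrays but on the same slides and fit. Of the 374 probes called higher in SRCAP siRNA cells 339 were called in NC siRNA cells, which is 90.6% of the SRCAP list and 84.1% of the 403 probes of the NC list. Of the 35 called only after SRCAP knockdown 34 had a change above 0 in NC siRNA cells, the exception being PCDH7, a protocadherin (1.30 against -0.03, difference 1.33 ± 0.31), which is named here after its values were seen. No probe was called for the difference between the siRNAs (0 by limma, smallest adjusted p = 0.826, and 0 with the slide block), and 352 had an unadjusted p under 0.05, of which 196 were below 0.

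Of the named genes none was called for this difference, which was below 0 for 5 of 5 tested genes that the study followed as silenced and for 34 of 35 cancer-testis genes, against 5104 of all 11169 genes. Median changes of these lists were 2.81 and 2.37 in SRCAP siRNA cells and 3.64 and 3.62 in NC siRNA cells. The study chose some of the 5 silenced genes for a rise in NC siRNA cells on these same samples. That choice favours a difference below 0, so their count is a description. VCX read 7.90 in NC and 5.60 in SRCAP siRNA cells, a difference of -2.30 ± 0.50 (unadjusted p = 0.00115, adjusted p = 0.992), and VCX3B -2.40 ± 0.47 (adjusted p = 0.831, and 0.0764 with the slide block). CDKN2A read 3.64 and 2.81, a difference of -0.82 ± 0.31 (adjusted p = 0.999), EPM2AIP1 differed by -0.93 ± 0.31, CHFR by -0.80 ± 0.32, SYCP3 by -0.75 ± 0.39 and CTCFL by -0.64 ± 0.32. DAZL differed by 0.12 ± 0.36, LOX by -0.30 ± 0.31, HCLS1 by 0.33 ± 0.34 and VIM by 0.82 ± 0.37. The difference was below 0 for 231 of the 374 probes called higher and for 156 of the 262 genes, and for 8502 of all 18922 probes, whose median was 0.04. The 374 were chosen on the SRCAP siRNA arrays, so the counts are a description.

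**Figure D4:**
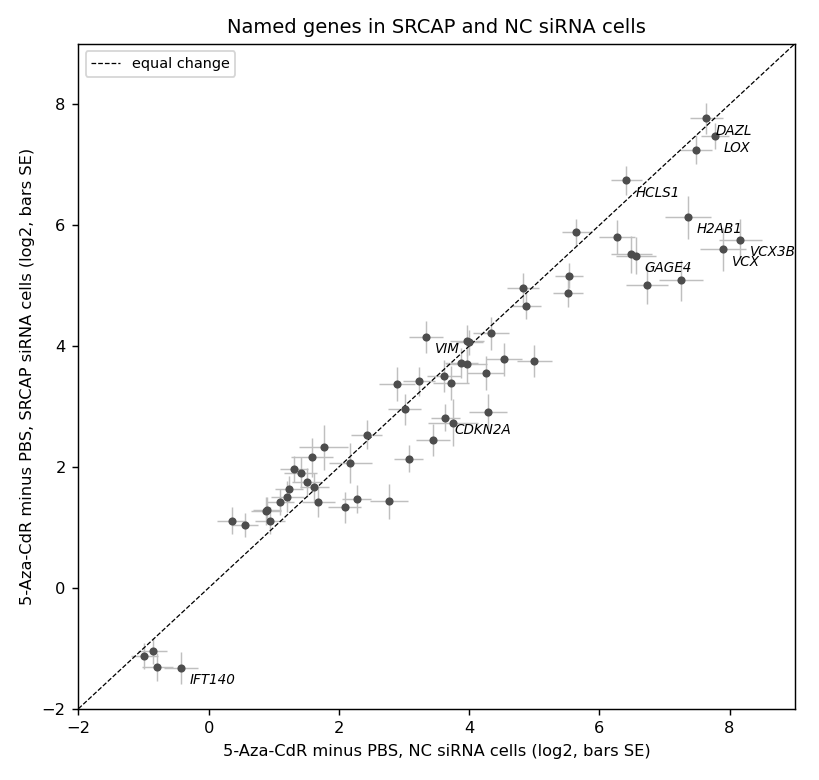
Log2 change after 5-Aza-CdR of the called named genes in NC siRNA cells (x axis) and in SRCAP siRNA cells (y axis), with SE bars from the fit of 2 arrays per group and a dashed line of equal change. DAZL, LOX and HCLS1 lie at or near the line, VCX, VCX3B and H2AB1 lie below it, and no difference was called.

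Genes can also be chosen on the NC arrays alone and then read in SRCAP siRNA cells, which frees the SRCAP readout from its own filter. On the NC arrays 577 probes were detected on neither PBS array and on both 5-Aza-CdR arrays. In SRCAP siRNA cells 486 of them were undetected on both PBS arrays, and of these 296 were detected on both arrays with the drug, 111 on 1 and 79 on neither. The signal was higher with the drug on both slides for 479 of the 577. With the test run on probes detected on at least 2 of the 4 NC arrays, 242 of the 577 were higher in SRCAP siRNA cells (41.9%) and 0 lower, against 366 of all 18910 probes higher (1.94%). The median log2 change of the 577 was 0.91 in SRCAP siRNA cells and 1.61 in the NC cells on which they were chosen, a choice that favours the NC value.

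Promoters in the RefSeq table were found for 9191 of the 11169 tested genes and 211 of the 262 called higher. The called genes had a median of 19 CG in 300 bases, with quartiles of 10 and 27.5, against 26 (18 and 34) for all tested genes. The median observed over expected CG was 0.705 and 0.842, and the GC content 62.3% and 65.0%. Tested genes detected on no PBS array had a median of 17 CG, close to that of the called genes. The sequence GCGGGA, on either strand, stood in 31.3% of promoters of called genes, 42.1% of tested genes and 26.8% of all 27305 genes of the table. Among tested genes detected on no PBS array it stood in 27.5%. CACGTG, which reads the same on both strands, stood in 9.0%, 10.6% and 7.4%, and in 8.4% of tested genes detected on no PBS array. The X chromosome held 36 of the 211 promoters (17.06%) against 3.76% of those tested and 13.19% of tested genes detected on no PBS array. Among genes detected on both PBS arrays it held 5.17% of those called higher and 3.51% of those tested, though only 58 of the 73 called genes had a promoter, too few for this to be a fair check. These are descriptions with no test.

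**Figure D5:**
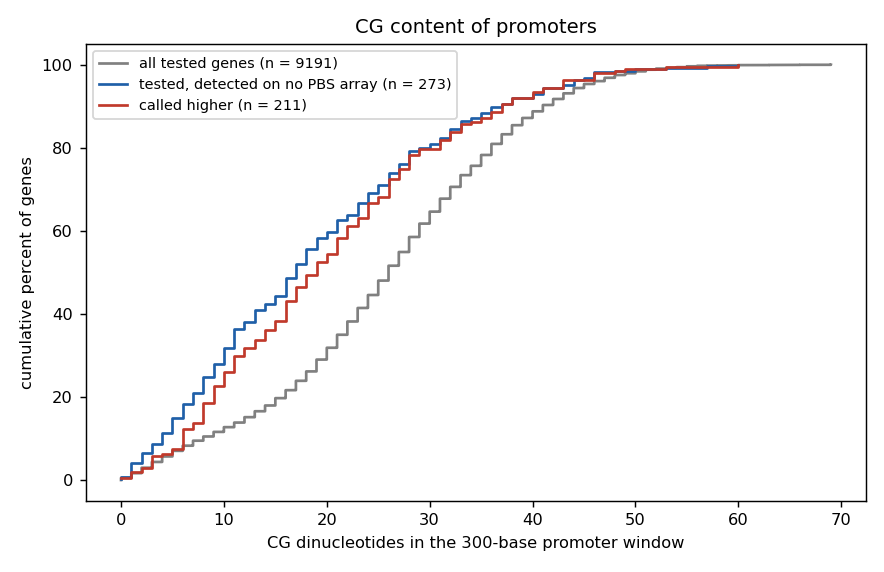
Cumulative percent of genes (y axis) by the number of CG dinucleotides in the 300-base promoter window (x axis), for all 9191 tested genes with a promoter (grey), the 273 of them detected on no SRCAP PBS array (blue) and the 211 called higher (red). The red and blue curves lie to the left of the grey one, with medians of 19, 17 and 26.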

How the data were processed

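RNA of 8 samples of RKO cells was read on Illumina HumanWG-6 v3 bead arrays. Intensity was deposited as 1 bead average for each probe and array, not normalized between arrays, and the submitters' processing notes name BeadStudio 3.0.1. The deposited detection p-value sets each signal against the negative control beads of its array. A further deposited table holds log2 values that the authors made by robust spline normalization in lumi, and it was used as an alternative. No genome build is given for the probes in the sources used here.

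The table held 48805 lines, and 2 IDs found on more than 1 line were left out. The neqc function of limma 3.58.1 in R 4.3.3 corrected the background by way of the detection p-values, added an offset of 16, quantile normalized the 8 arrays and took log2. Tested were probes below a detection p of 0.01 on 2 or more SRCAP siRNA arrays. Symbols were those of GEO's platform annotation, brought up to date by RefSeq gene ID for 27539 probes. Of all probes 27576 had 1 symbol, 13 several and 21212 none, which means unnamed here. Of 18922 tested probes 15105 had 1 symbol.

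All 8 arrays entered 1 model of group means (lmFit and eBayes, 4 residual and 5.52 prior degrees of freedom), so the groups share 1 estimate of spread. Tests were two-sided, and a probe was called at a Benjamini-Hochberg adjusted p under 0.05. The study's methods name SAM and no pairing is stated. Replicate numbers coincide with slides. Deviations of SRCAP PBS and SRCAP 5-Aza-CdR arrays of the same number correlated at r = 0.00714 (0.00178 to 0.744 over the 6 pairs of groups), so the slide block is an alternative.

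A gene was read from its tested probe of highest mean signal over the 4 SRCAP siRNA arrays. Named genes were the 15 largest increases, up to 10 largest decreases, the 10 largest increases among detected genes and up to 4 per list in order of p, all called and changed alike on both slides, and, whether called or not, SRCAP and genes the study followed. Other genes are examples chosen after their values were seen. The members of the lists and the comparison itself were chosen with earlier results of these data known. Each bound takes, per array, the higher of the probe's signal and the lowest signal of a detected probe. The fit was tested on simulated data. The number of arrays limits the precision. Alternatives covered normalization, filters, the slide block, array weights, an intensity trend, thresholds and each array left out.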

Additional observations from a re-analysis of the deposited data

How the results depend on the processing

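Of 60 called named genes, 38 were called in the same direction under every setting that tested them, and none changed direction. Of the 22 that lost a call in at least 1 setting, 18 were increases and 4 decreases. IFT140 and CAMK1D lost it in 10 settings, LMF1 and IFITM1 in 9, ACTA1, C1orf21, CLDN7 and IRF7 in 8, UCHL1 in 7, and ENO3, TAP1 and TP53INP1 in 6, and 10 others in 1 to 4. Probes called higher numbered 374, with 232 on log2 quantile signals without background correction and 177 in the authors' table. When detection was required on all 4 arrays or on both PBS arrays 77 were higher. Both filters leave out genes undetected under PBS, but the main test had called 102 of the probes detected on both PBS arrays. All 77 were among the 374. Leaving out each array of SRCAP siRNA cells gave 236 to 259 higher and 0 to 3 lower. Probes called lower numbered 7, with 2 without background correction, 0 with median scaling, 3 with an offset of 50, 2 in the authors' table, 0 with detection required on all 4 or on both PBS arrays, 4 with an intensity trend, 22 with array weights, 0 at an adjusted p under 0.01, and 27 when the 4 arrays were fitted alone, with or without their own normalization. With the replicate block, the slide, 497 were higher and 63 lower. The cause of these shifts was not tested where fewer probes or arrays do not account for them. Median scaling moved the median of all tested probes from -0.03 to 0.10. The difference between siRNAs had 0 calls in each setting run, including with each of the 8 arrays left out. Low signals limit what can be said, since a gene not detected under PBS has only a bound for its fold.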

Other observations

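Other gene groups among the calls were picked out after their values were seen and were given no test. C2H2 zinc finger genes, transcription factors that mostly repress, had 15 of 379 tested members higher and 0 lower, with a median change of -0.04, against 262 of all 11169 genes higher. Of these 15 increases 14 were in genes detected on no PBS array, a class in which 177 of all 336 tested genes were higher, beside 346 tested members detected on both PBS arrays of which 1 was higher. ZSCAN18 read 4.79 and 4.59 under PBS and 9.24 and 9.15 after 5-Aza-CdR (4.50 ± 0.22, at least 11.3-fold). ZNF134 went from 4.45 and 4.44 to 7.08 and 7.07 (2.63, at least 2.60-fold). ZNF586, the member detected under PBS, changed by 2.67 ± 0.22, and its 2 further probes changed by 2.60 and 1.57. ZFP42, a marker of pluripotent cells, rose at least 3.90-fold.

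Further single genes among the calls, also picked after their values were seen, follow as values with no common theme tested. The growth factor VEGFC was detected under PBS and went from 8.03 and 7.56 to 9.91 and 10.13 (2.23 ± 0.25). PDGFA, another growth factor, changed by 2.09 ± 0.34. ANGPT2, a ligand of the endothelial receptor TIE2, rose at least 2.24-fold, the TGF-beta co-receptor ENG at least 3.05-fold and the junction protein ESAM at least 2.38-fold. The protease inhibitor SERPINE2 went from 5.88 and 5.88 to 8.58 and 8.82 (2.82 ± 0.22), and PLAT, tissue plasminogen activator, from 6.39 and 6.13 to 7.83 and 7.67 (1.49 ± 0.24). The cholesterol exporter ABCA1 went from 7.79 and 7.68 to 10.93 and 11.16 (3.31 ± 0.27). The transglutaminase TGM2 went from 6.38 and 6.77 to 10.01 and 9.92 (3.39 ± 0.34), and a further probe of it changed by 1.70. EEF1A2, a translation elongation factor of muscle and nerve, rose at least 7.19-fold and CLDN11, a claudin of myelin and testis, at least 13.5-fold. Of 26 protocadherin genes tested 4 were higher (PCDHB3, PCDHB5, PCDH20 and PCDH7), none of them among the 15 detected on both PBS arrays. Among all genes tested 2.35% were higher.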
